A study of Mus musculus with 8 samples.

Results

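The Rab genes encode small GTPases that direct traffic between membranes, and their mRNAs were followed in the cortex of mice on a normal diet and of high fat diet (HFD) fed mice. The members were the protein-coding genes named Rab with a number and at most a single letter, which gave 50 of the 13996 genes listed, with 35 different Rab numbers. Another 10 genes named Rab and a number, such as Rab11fip3, Rab3gap1 and the antisense RNA Rab10os, fell outside this rule. All mice were male C57BL/6, with no genetic change named in the labels. From 8 weeks of age, 4 mice (Normal 1 to 4) were kept on a conventional diet and 4 mice (HFD 1 to 4) on a diet with 60% fat by weight, each for 8 weeks, and the cortexes were collected at 16 weeks of age. There was 1 library of rRNA-depleted total RNA per mouse. Expression is given as FPKM, a fragment count divided by transcript length and by the mapped reads of the library, which corrects for transcript length and depth and therefore leaves the number of reads behind a value unknown. Each value was rounded to 0.1 FPKM, which limits the precision of members near 1 FPKM.

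A Rab protein works as a switch. In its GTP-bound form it sits on a particular membrane and binds effectors such as motors, tethers and vesicle-docking proteins, and in its GDP-bound form it is drawn back into the cytosol by an escort protein called GDI. Exchange factors (GEFs) turn the switch on and GTPase activating proteins (GAPs) turn it off, while a lipid anchor is added by a prenyltransferase with the help of the Rab escort proteins. Each Rab marks its own compartment. In neurons, Rab3 proteins sit on synaptic vesicles, Rab5 on early endosomes, Rab11 on recycling endosomes, Rab7 on late endosomes, and Rab1, Rab2 and Rab6 on the membranes between the endoplasmic reticulum and the Golgi. Rab10 is known for carrying the glucose transporter to the cell surface in response to insulin. Tbc1d1 and Tbc1d4 are GAPs that turn Rab10 off.

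Promoter sequences from RefSeq (GRCm38.p6), covering 250 bases before and 50 bases after a transcript start, were matched by symbol to 42 of the 50 genes, which had 54 promoters in all. Those of Rab6b and Rab6a are printed because the ratio of these closely related genes did not overlap between the diets. Those of Rab3b and Rab5a are printed as a promoter of a member that was higher and of a member that was lower in HFD mice. Capitals mark the GC box GGGCGG, the cAMP response element TGACGTCA, the E-box CACGTG and the TATA box TATAAA, each searched on both strands. The positions are chr9:103111824-103112123 for Rab6b, chr7:100607336-100607635 for Rab6a, chr4:108878820-108879119 for Rab3b and chr17:53478984-53479283 for Rab5a, all on the plus strand.
Rab6b: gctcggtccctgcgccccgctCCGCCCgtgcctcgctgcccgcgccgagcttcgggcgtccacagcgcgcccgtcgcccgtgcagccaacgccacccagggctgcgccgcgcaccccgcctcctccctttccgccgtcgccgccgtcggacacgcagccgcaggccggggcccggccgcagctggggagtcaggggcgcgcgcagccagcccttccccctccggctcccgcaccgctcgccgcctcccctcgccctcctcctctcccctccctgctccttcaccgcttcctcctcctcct
Rab6a: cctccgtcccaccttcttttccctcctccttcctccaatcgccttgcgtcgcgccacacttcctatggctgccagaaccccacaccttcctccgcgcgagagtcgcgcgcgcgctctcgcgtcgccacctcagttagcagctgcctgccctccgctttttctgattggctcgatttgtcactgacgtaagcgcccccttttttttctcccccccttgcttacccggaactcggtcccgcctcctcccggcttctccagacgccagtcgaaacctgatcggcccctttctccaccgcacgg
Rab3b: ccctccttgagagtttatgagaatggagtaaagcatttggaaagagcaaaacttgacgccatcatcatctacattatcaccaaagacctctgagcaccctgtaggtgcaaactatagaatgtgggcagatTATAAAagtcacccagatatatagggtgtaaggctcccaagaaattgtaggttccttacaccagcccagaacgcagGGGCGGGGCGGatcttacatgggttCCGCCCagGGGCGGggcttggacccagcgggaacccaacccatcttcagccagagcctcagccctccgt
Rab5a: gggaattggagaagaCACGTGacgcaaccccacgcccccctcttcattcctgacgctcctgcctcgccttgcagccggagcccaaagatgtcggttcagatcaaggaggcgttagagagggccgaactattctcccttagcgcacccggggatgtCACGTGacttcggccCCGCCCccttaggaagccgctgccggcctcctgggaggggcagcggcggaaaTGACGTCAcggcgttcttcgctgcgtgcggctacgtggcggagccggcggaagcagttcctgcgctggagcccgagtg
The Rab6b window held 1 GC box and the Rab6a window none of the motifs. The Rab3b window held 4 GC boxes, of which an adjoining pair shares a base, and 1 TATA box. In the Rab5a window were 1 GC box, 1 cAMP response element and 2 E-boxes. Over the family, a GC box was present in 72.2% of the 54 Rab promoters and in 35.7% of all 32851 promoters of this length. A TATA box was present in 7.41% of Rab promoters against 13.6% of all, an E-box in 9.26% against 7.15%, and a cAMP response element in 1.85%, the Rab5a promoter, against 1.79%. The median GC content was 61.7% in Rab promoters and 52.7% in all promoters, and the median ratio of observed to expected CpG was 0.751 and 0.384. Promoters rich in CpG are common among genes that many cell types express. A GC box was found in 5 of the 7 promoters of members that were higher in HFD mice, in 4 of 4 of those that were lower and in 30 of 43 of those not called. These promoters belonged to 4, 4 and 34 genes, so they are not separate members. Among the 7, those without a GC box were all of Rab15, which also had promoters with a GC box.

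The libraries differed in markers of tissue next to the cortex. The summed FPKM of 11 cerebellum markers was 89.4, 468.7, 588.3 and 186.1 in Normal 1 to 4 and 71 to 87.7 in HFD mice, where the granule cell receptor gene Gabra6 was listed at 0 in HFD 1. Of the 9 of these markers that could be tested, 5 were lower in HFD mice and none higher. All 13 striatum markers tested were lower in HFD mice (290.8 to 511.3 in normal mice, 114.5 to 124.4 in HFD mice), as were 10 of 10 oligodendrocyte and myelin markers (2236 to 3665.7 against 1536 to 2126.3), 5 of 5 blood markers, 4 of 9 thalamus markers and 4 of 7 choroid plexus and ependyma markers. The summed FPKM of these last lists was 239.2 to 479.7 in normal and 199.1 to 247.4 in HFD mice for blood, 93.6 to 185 and 85.6 to 93.6 for the thalamus, and 347.1 to 735.1 and 23 to 943.9 for choroid plexus and ependyma. Of 10 markers of cortical projection neurons, 6 were higher (316.1 to 474.1 against 520.6 to 607.4) and none lower. Of the interneuron, astrocyte, oligodendrocyte precursor and endothelium lists, between 1 and 2 markers were higher and between 2 and 3 lower, and 0 of 7 microglia markers passed the threshold. In bulk tissue, fewer cells of a type and less RNA per cell cannot be told apart. Normal 2 and Normal 3, the mice with the most cerebellum RNA, were both below or both above Normal 1 and Normal 4 for 58% of the Rab genes and for 53.3% of all genes tested. These mice also had the highest summed thalamus (185 and 166.7), astrocyte (1415 and 1437.9) and oligodendrocyte and myelin markers (3665.7 and 3310.1). Their cortical projection neuron markers were the lowest (334.5 and 316.1). Among the normal mice, differences in cerebellum RNA therefore cannot be told apart from differences in these lists. The summed FPKM of all genes lay between 562431 and 639142 per mouse.

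The Rab mRNAs were expressed over a wide range in the cortex. Rab3a, which controls the docking and release of synaptic vesicles, was the highest with 302.3, 282.4, 279.3 and 302.1 FPKM in Normal 1 to 4 and 310.5, 306, 319.9 and 302.8 in HFD 1 to 4. It made up 16.6% of the summed Rab FPKM by itself. Next came Rab6a (118.2 to 137.6 over the 8 mice) and Rab6b (88 to 145), which act in Golgi traffic, Rab2a (95.1 to 102.7), which acts between the endoplasmic reticulum and the Golgi, Rab7 (76.7 to 95.5), which brings late endosomes to lysosomes, and Rab15 (64.9 to 92.4), an endosomal Rab of neurons. These 6 members held 44.9% of the summed Rab FPKM. In the order of mean levels, only 3 of the 49 pairs of neighbours had ranges over the 8 mice that did not overlap, those of Rab3a over Rab6a, Rab3c over Rab1a and Rab4b over Rab9, so that the order of the other neighbours is not fixed by these data. A mean above 50 FPKM was found for 12 members and above 10 FPKM for 35, while 8 members were below 5 FPKM and the lowest, Rab42, lay between 0.6 and 1.4. The FPKM of the family summed to 1801.5 ± 54.3 for the normal and 1830.3 ± 15.9 for the HFD mice (SD, n = 4 each), with ranges of 1734.9 to 1855.2 and 1817.5 to 1853.6 that overlapped. Rab mRNAs made up between 0.280% and 0.323% of all FPKM in each mouse.

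**Figure D1:**
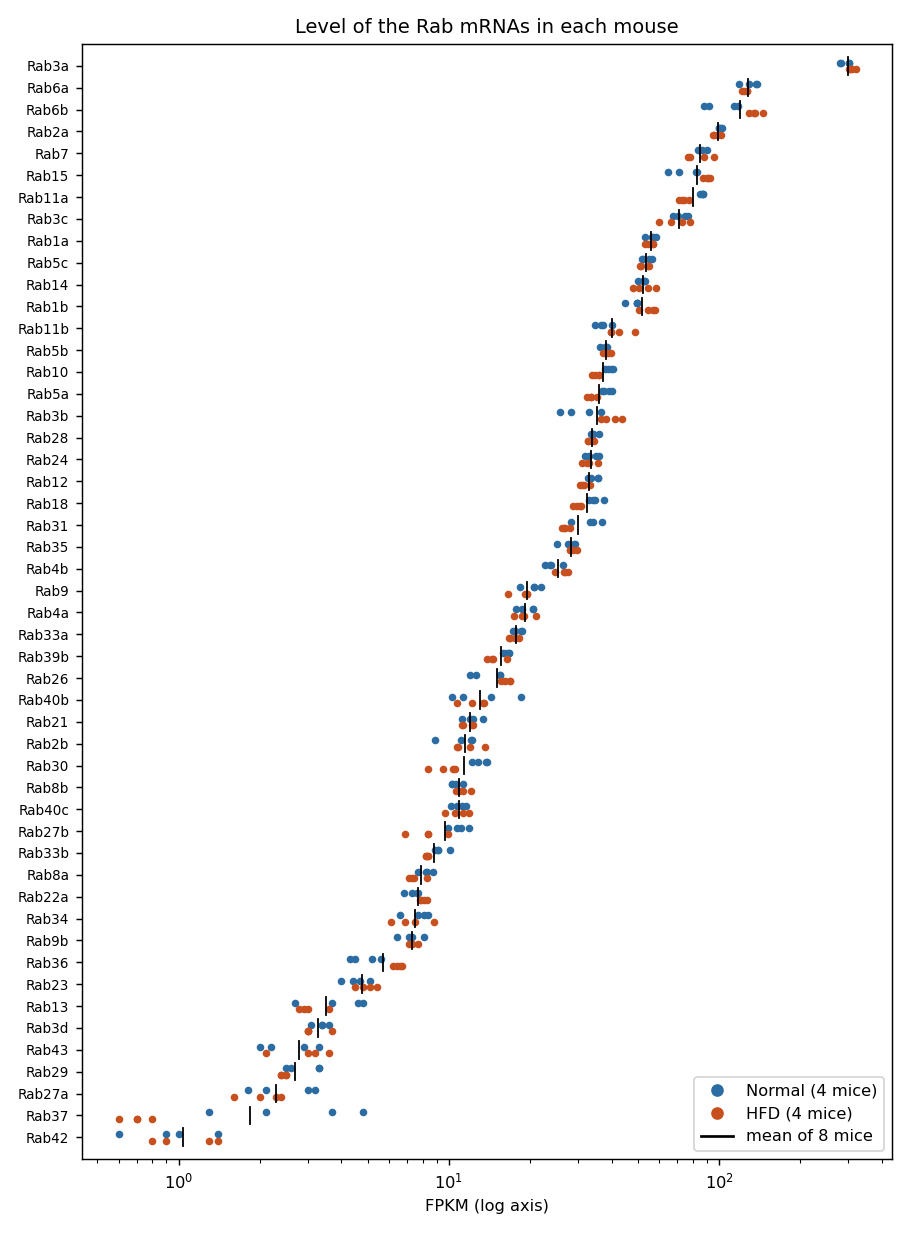
FPKM (log axis) of the 50 Rab mRNAs in each of the 4 normal (blue) and 4 HFD mice (orange), ordered by the mean of the 8 mice (black line). Rab3a stands apart at 279.3 to 319.9 FPKM, and Rab42 and Rab37 are the lowest.

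The diets were compared to find which of the Rab mRNAs changed after feeding with fat. With limma on log2(FPKM + 0.1), two-sided and adjusted over the 13982 genes tested, 13 of the 50 members passed an adjusted p of 0.05, which is 26% of the family, where 33.1% of all genes tested passed. All 50 members had passed the filter on low values. High fat diet fed mice were higher for 5 members (10%, against 17.7% of all genes) and lower for 8 (16%, against 15.3%). Of protein-coding genes alone, 16.5% were higher and 16.8% lower. A difference of more than 1.5-fold in either direction was found among those called for 1 member, Rab37, which is 2% of the family where 7.13% of all genes were called with such a difference. The values of the 4 mice of each diet did not overlap for 15 members (30%, against 31.9% of all genes), of which 11 were among the 13 called. Across the family the median log2 fold change was -0.042, against 0.00311 over all genes, and the median size of the change was 0.127 against 0.173. For protein-coding genes alone these medians were -0.0141 and 0.163. The means of the diets were within 10% of each other for 29 members and within 20% for 43. The median SD between mice of the same diet on the log2 scale was 0.0864 in normal and 0.0743 in HFD mice, where all genes had 0.120 and 0.101. Protein-coding genes alone had 0.111 and 0.0940, and the 138 genes listed as regulators or effectors of Rab proteins had 0.0823 and 0.0691. The median level was 19.3 FPKM for the Rab genes, 11.2 for protein-coding genes and 9.78 for all genes. The part of level and gene class in this spread was not tested. Fold changes on the log2(FPKM + 0.1) scale understate the change of low members such as Rab37.

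**Figure D2:**
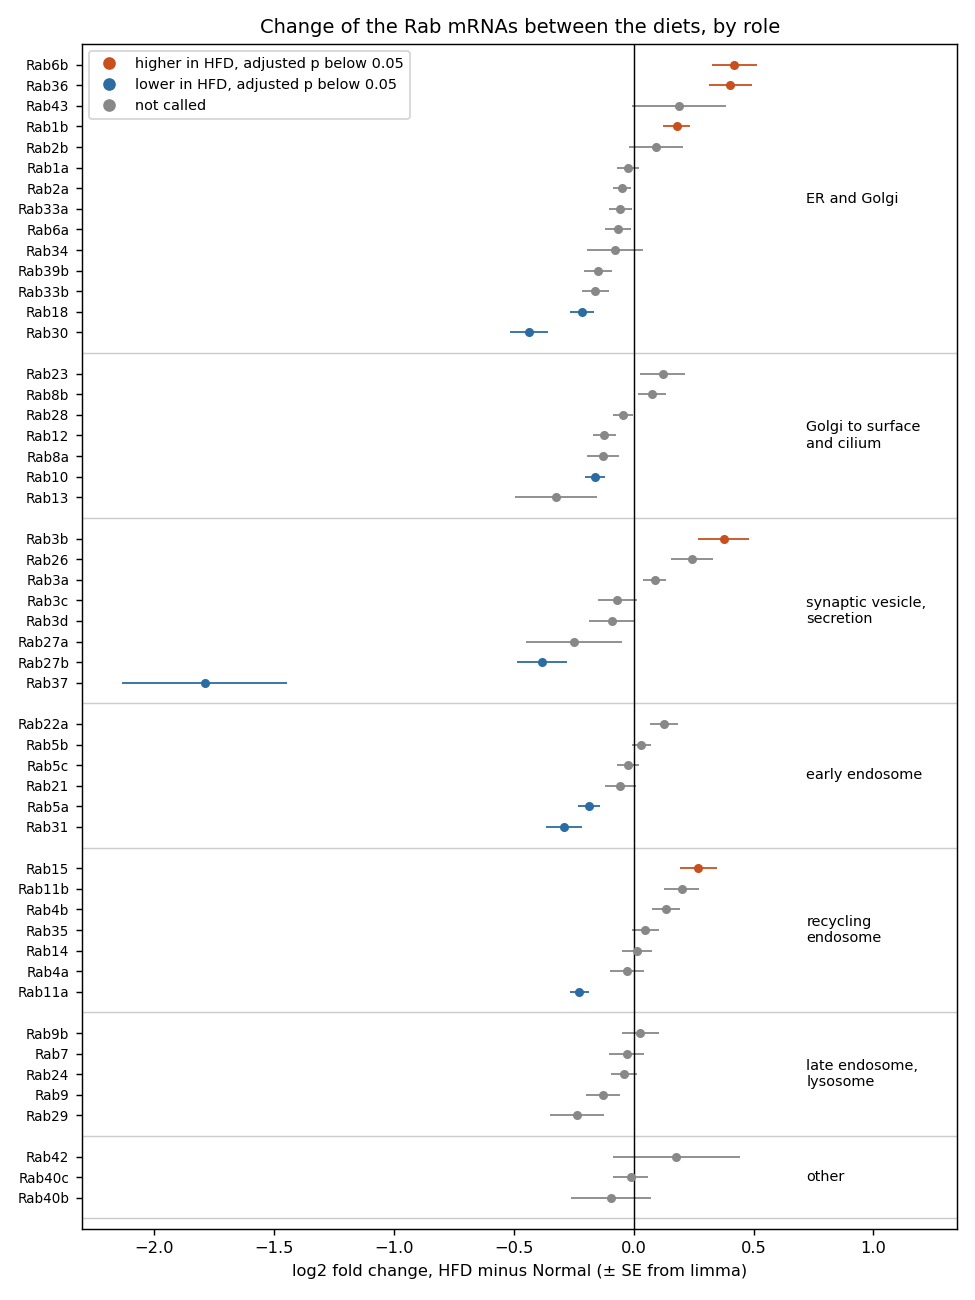
Log2 fold change of each Rab mRNA, HFD minus Normal, with the standard error from limma, grouped by the compartment on which the protein acts. Members with an adjusted p below 0.05 are orange (5 higher) or blue (8 lower), and Rab37 at -1.79 lies far from the other 49.

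Of 14 Rab genes that act at the endoplasmic reticulum and the Golgi, 3 were higher (21.4%), 2 were lower (14.3%) and 9 did not pass the test. Of all genes tested, 17.7% were higher and 15.3% lower. Rab6b (chromosome 9, 103111787 to 103185276 in GENCODE M21), the form of Rab6 enriched in neurons, measured 113.2, 91.5, 88 and 117.7 FPKM in Normal 1 to 4 and 129.5, 135.5, 145 and 135.1 in HFD 1 to 4. No normal mouse reached the lowest HFD mouse, and Normal 2 and 3 were the lowest of all. Its log2 fold change was 0.42 (SE 0.094, adjusted p = 0.00931 from limma), and without Normal 2 and 3 it was 0.24 (adjusted p = 0.0244 from limma). Rab36 (chromosome 10, 75037058 to 75054748), which positions late endosomes and lysosomes near the Golgi, rose from 5.2, 4.3, 4.5 and 5.6 to 6.2, 6.7, 6.4 and 6.6 FPKM, with a log2 fold change of 0.40 (SE 0.090, adjusted p = 0.00891 from limma). Here too the diets did not overlap and Normal 2 and 3 were the lowest. Rab1b (chromosome 19, 5099205 to 5107072), needed for transport from the endoplasmic reticulum to the Golgi, measured 49.8, 49.6, 44.7 and 49.8 FPKM in normal and 57.8, 50.7, 56.8 and 54.5 FPKM in HFD mice. HFD 2 was only just above the highest normal mice, and the log2 fold change of 0.18 (SE 0.056, adjusted p = 0.0348 from limma) kept its call in only 3 of the 8 fits that leave out a mouse.

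The members of this group that were lower were Rab30 and Rab18. Rab30 (chromosome 7, 92741603 to 92844535), a Rab of the Golgi stacks, fell from 12.2, 13.8, 13.7 and 12.8 to 8.4, 10.5, 9.5 and 10.4 FPKM. Every HFD mouse was below every normal mouse, and the log2 fold change was -0.44 (SE 0.080, adjusted p = 0.00385 from limma). Rab18 (chromosome 18, 6733905 to 6794429), which sits on the endoplasmic reticulum and on lipid droplets, measured 34.7, 34, 37.6 and 33.1 FPKM in normal mice and 28.7, 30.9, 30.6 and 29.8 FPKM in HFD mice. Its ranges were apart as well, and the log2 fold change was -0.21 (SE 0.051, adjusted p = 0.0113 from limma). The 305 exonic bases that Rab18 shares with the same-strand RNA AC131796.2 make its level uncertain. Among the rest of the group, Rab33b (9.3 ± 0.542 against 8.3 ± 0.115 FPKM, SD, n = 4) did not overlap between diets but had an adjusted p of 0.0534 from limma.

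Among the 8 Rab genes of synaptic vesicles and regulated secretion, 1 was higher (12.5%, against 17.7% of all genes) and 2 were lower (25%, against 15.3%). Rab37 (chromosome 11, 115091431 to 115162236), a Rab of secretory granules, was the member with the largest change. It measured 1.3, 4.8, 3.7 and 2.1 FPKM in Normal 1 to 4 and 0.8, 0.6, 0.7 and 0.7 in HFD 1 to 4. All normal mice were above all HFD mice, but the normal mice differed widely among themselves and Normal 2 and 3, which also had the most cerebellum RNA, were the highest. The log2 fold change was -1.79 (SE 0.343, adjusted p = 0.00472 from limma), it was -1.14 (adjusted p = 0.0178 from limma) without Normal 2 and 3, and -0.62 (adjusted p = 0.179 from limma) with the cerebellum markers as a covariate. Values this close to the 0.1 step of the data carry a coarse error. Rab27b (chromosome 18, 69979131 to 70141605), which docks secretory granules at the plasma membrane, measured 11.1, 9.9, 10.7 and 11.9 FPKM in normal and 8.4, 8.4, 6.9 and 9.9 in HFD mice. Only HFD 4 reached the lowest normal mouse, and the log2 fold change was -0.38 (SE 0.104, adjusted p = 0.0209 from limma).

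Rab3b (chromosome 4, 108879063 to 108943324), a synaptic vesicle Rab, measured 33.1, 25.7, 28.3 and 36.6 FPKM in normal mice and 43.7, 38.3, 36.5 and 41.1 in HFD mice. The diets overlapped by a small amount at HFD 3 and Normal 4, and Normal 2 and 3 were again the lowest. Its log2 fold change was 0.38 (SE 0.106, adjusted p = 0.0237 from limma) and kept its call in 4 of 8 fits that leave out a mouse. An antisense RNA, 8030443G20Rik, shares 317 exonic bases with Rab3b. Rab3a, at 292 ± 12.4 against 310 ± 7.44 FPKM (SD, n = 4), and Rab26, at 13.9 ± 1.84 against 16.4 ± 0.614 FPKM, did not overlap between diets, with log2 fold changes of 0.088 and 0.24, and did not pass the threshold (adjusted p = 0.181 and 0.058 from limma). Rab3c was at 72.4 ± 4.14 and 69.3 ± 7.93 FPKM, Rab3d at 3.38 ± 0.206 and 3.17 ± 0.350 FPKM and Rab27a at 2.52 ± 0.680 and 2.08 ± 0.359 FPKM in normal and HFD mice, all with overlapping values.

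**Figure D3:**
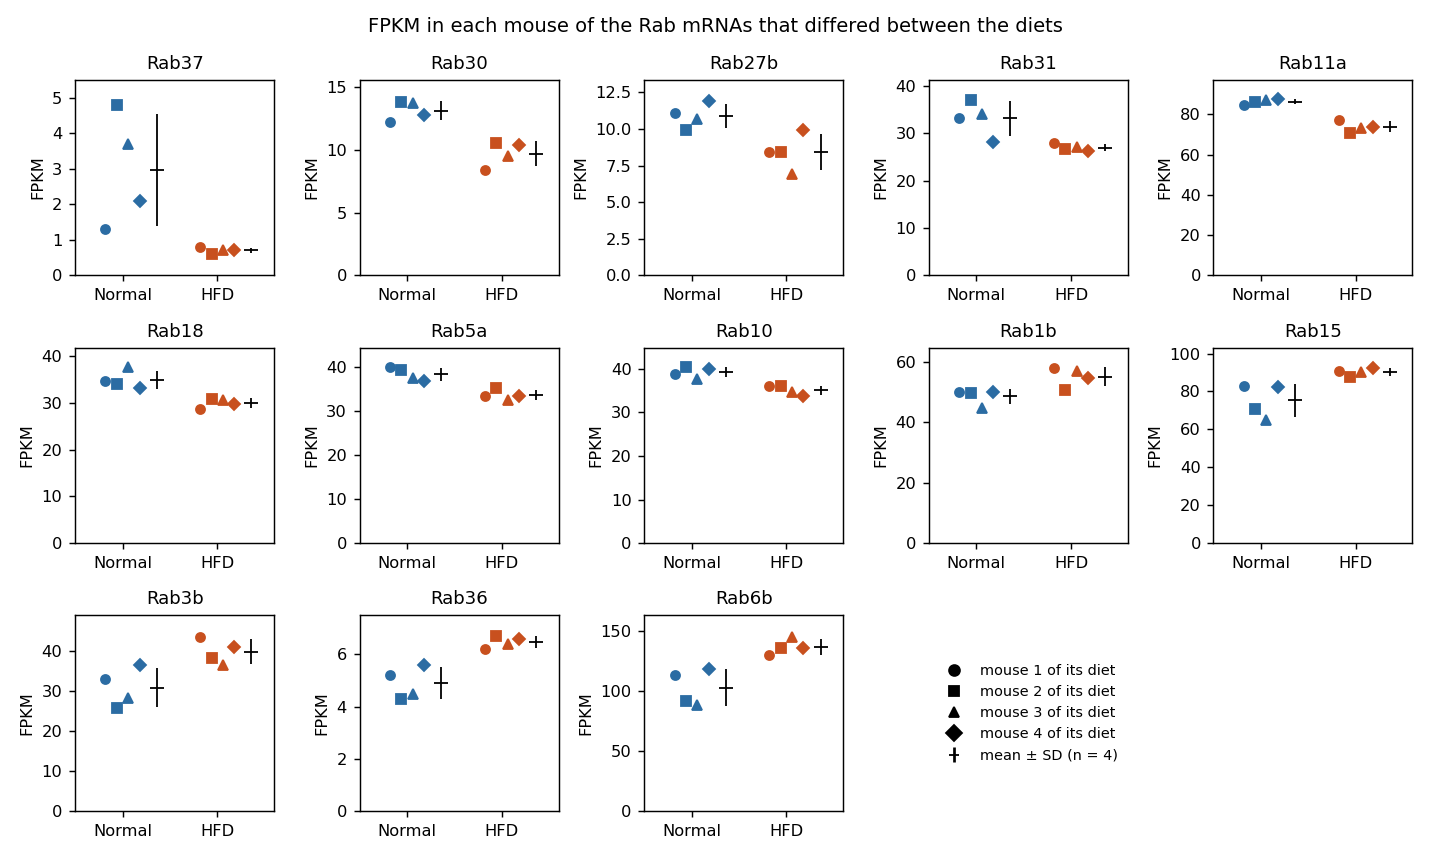
FPKM of the 13 Rab mRNAs with an adjusted p below 0.05, a symbol for each of the 4 mice of a diet (blue, Normal, and orange, HFD) and the mean ± SD beside them; each axis starts at 0. For 11 of the 13 the diets do not overlap, and in the 5 mRNAs that were higher, Normal 2 (square) and Normal 3 (triangle) are the lowest mice.

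Of the 6 Rab genes of the early endosome, 2 were lower (33.3%, against 15.3% of all genes) and none was higher. Rab5a (chromosome 17, 53479234 to 53507680), which drives fusion of early endosomes after endocytosis, measured 40, 39.2, 37.4 and 36.8 FPKM in normal mice and 33.5, 35.3, 32.5 and 33.5 in HFD mice. The ranges were apart by a small margin, and the log2 fold change was -0.19 (SE 0.046, adjusted p = 0.0134 from limma). Rab31 (chromosome 17, 65651729 to 65772752), which moves cargo between the Golgi and endosomes, measured 33.3, 37, 34 and 28.2 FPKM in normal mice and 28, 26.6, 27 and 26.3 in HFD mice. Normal 4 was nearly as low as HFD 1, and the log2 fold change was -0.29 (SE 0.075, adjusted p = 0.0172 from limma). The summed FPKM of the 6 genes was 182.6 ± 5.36 in normal mice and 172.0 ± 2.11 in HFD mice (SD, n = 4), without overlap. This sum includes the called Rab5a and Rab31. For the endoplasmic reticulum and Golgi group the sums overlapped (527.8 to 580.9 in normal, 565.9 to 585.1 in HFD mice). They also overlapped for the synaptic vesicle and secretion group (416.7 to 444.4, 441.2 to 457.3) and the recycling endosome group (307.6 to 331.2, 325 to 346.8). Rab22a, at 7.35 ± 0.404 and 8.03 ± 0.222 FPKM, did not overlap in the opposite direction and had an adjusted p of 0.130 from limma.

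In the recycling endosome, 1 of 7 members was higher and 1 lower (14.3% each, against 17.7% and 15.3% of all genes). Rab11a (chromosome 9, 64715299 to 64737758), which returns receptors to the cell surface, had the smallest adjusted p of the family. It measured 84.7, 86.2, 86.9 and 87.4 FPKM in normal mice and 77.3, 70.9, 73 and 73.9 FPKM in HFD mice. The normal mice lay close together and above every HFD mouse, and the log2 fold change was -0.23 (SE 0.040, adjusted p = 0.00348 from limma). Without Normal 2 and 3 the value was -0.22 (adjusted p = 0.0211 from limma), and with the cerebellum markers as a covariate it was -0.21 and no longer called (adjusted p = 0.0765 from limma). Rab15 (chromosome 12, 76797960 to 76822908), which slows the return of receptors from endosomes, measured 82.9, 70.9, 64.9 and 82.2 FPKM in normal mice and 90.8, 87.5, 90.2 and 92.4 in HFD mice. The diets were apart, with Normal 2 and 3 the lowest, and the log2 fold change of 0.27 (SE 0.077, adjusted p = 0.0248 from limma) was 0.032 (adjusted p = 0.822 from limma) with the cerebellum markers as a covariate. Rab15 kept its call in 4 of the 8 fits that leave out a mouse.

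Of 7 Rab genes that act between the Golgi, the plasma membrane and the cilium, 1 was lower (14.3%, against 15.3% of all genes). Rab10 (chromosome 12, 3247428 to 3309969), which carries the glucose transporter vesicles and membrane for axon growth, measured 38.8, 40.5, 37.8 and 39.9 FPKM in normal mice and 36, 36, 34.6 and 33.8 FPKM in HFD mice. All HFD mice were below all normal mice, and the log2 fold change was -0.16 (SE 0.043, adjusted p = 0.0184 from limma). The call was lost without Normal 2 (adjusted p = 0.0541 from limma). The summed FPKM of the group was 135.5 ± 1.75 against 126.9 ± 1.49 (SD, n = 4) and did not overlap. Neither the 5 members of late endosomes, lysosomes and autophagy nor the 3 members that are little studied or carry a SOCS box included a call, and their summed FPKM overlapped between diets (148 to 152.6 and 138.3 to 153 for the former). Rab7 measured 86.0 ± 3.15 and 84.5 ± 8.98 FPKM (SD, n = 4), with a log2 fold change of -0.029 (SE 0.072). The largest size of a log2 fold change among the 37 members not called was that of Rab13, at -0.32 (SE 0.172), with 3.95 ± 0.961 FPKM in normal and 3.08 ± 0.359 FPKM in HFD mice.

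Many Rab proteins exist as closely related forms, and the balance between forms was compared as the ratio of their FPKM in each mouse, with no test. Rab6b over Rab6a was 0.823, 0.709, 0.745 and 0.857 in Normal 1 to 4 and 1.06, 1.07, 1.15 and 1.09 in HFD 1 to 4, so that Rab6a was the more abundant form in every normal mouse and Rab6b in every HFD mouse. Rab6a itself measured 131 ± 9.16 and 125 ± 2.28 FPKM (SD, n = 4) and was not called (log2 fold change -0.066, SE 0.055). The opposite strand gene Mrpl48 shares 708 exonic bases with Rab6a, and reads from it could enter the ratio. Rab11b over Rab11a was 0.399 to 0.465 in normal mice and 0.516 to 0.668 in HFD mice. Rab11b, at 37.2 ± 2.24 and 42.8 ± 4.22 FPKM, had a log2 fold change of 0.20 (SE 0.073, adjusted p = 0.0601 from limma), opposite in sign to that of Rab11a. For Rab5b over Rab5a the ratio was 0.948 to 1.05 in normal mice and 1.06 to 1.2 in HFD mice.

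Of the 19 pairs of forms, 6 had ratios without overlap between the diets, where 31.9% of all single genes had FPKM without overlap. The share among ratios of other gene pairs was not computed, so the count is not read as particular to the Rab family. Besides the Rab6, Rab11 and Rab5 pairs, the pairs without overlap were Rab3c over Rab3b (1.93 to 2.91 and 1.65 to 1.91), Rab3d over Rab3b (0.0984 to 0.132 and 0.0686 to 0.0900) and Rab9b over Rab9 (0.343 to 0.370 and 0.372 to 0.440). The gap between the ranges of Rab9b over Rab9 was smaller than the rounding error of these ratios. Rab1b over Rab1a ranged from 0.788 to 0.931 and from 0.888 to 1.09, with Rab1a at 56.3 ± 2.20 and 55.4 ± 1.93 FPKM (SD, n = 4). Rab8b over Rab8a ranged from 1.18 to 1.38 and from 1.36 to 1.66, where Rab8a was at 8.22 ± 0.411 and 7.53 ± 0.532 FPKM and Rab8b at 10.6 ± 0.472 and 11.2 ± 0.650 FPKM. In the Rab2, Rab4, Rab27, Rab33 and Rab40 pairs and in the remaining Rab3 and Rab5 pairs the ratios overlapped too. Among these forms, Rab2b lay between 8.9 and 13.6 FPKM, Rab4a between 17.4 and 21, Rab4b between 22.7 and 27.7, Rab5b between 36.3 and 39.7, Rab5c between 51 and 56.3, Rab33a between 16.7 and 18.7, Rab39b between 13.8 and 16.7, Rab40b between 10.3 and 18.5 and Rab40c between 9.7 and 11.9 over the 8 mice, and none was called. Rab9 lay between 16.6 and 21.9 FPKM and Rab9b between 6.4 and 8.1, and neither was called. Reads shared by such related genes could be divided differently by other counting, which would move these ratios.

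**Figure D4:**
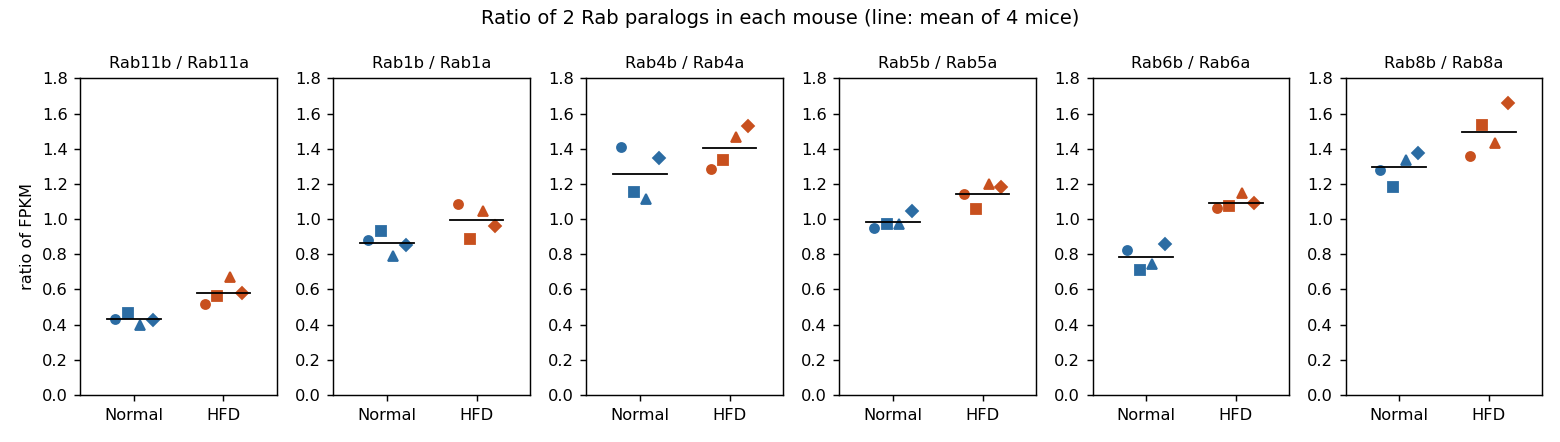
Ratio of FPKM of closely related Rab mRNAs in each mouse (blue, Normal 1 to 4, and orange, HFD 1 to 4, with circle, square, triangle and diamond for mice 1 to 4), with the mean of each diet as a line. The Rab6b over Rab6a ratio is below 1 in all normal mice (0.709 to 0.857) and above 1 in all HFD mice (1.06 to 1.15).

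The kinase LRRK2 phosphorylates a set of Rab proteins, of which 11 were measured. Among them Rab3b was higher, Rab10 was lower and 9 did not pass the test, which is 18.2% called against 33.1% of all genes. Lrrk2 itself lay between 14.4 and 18.7 FPKM over the 8 mice and was not called (adjusted p = 0.702 from limma). Ppm1h, a phosphatase that removes the mark left by LRRK2, rose from 14.9 ± 1.01 to 22.0 ± 1.23 FPKM (SD, n = 4), with a log2 fold change of 0.56 (SE 0.063, adjusted p = 0.000745 from limma). Its values did not overlap between the diets, and it remained called with the cerebellum markers as a covariate (0.43, adjusted p = 0.0258 from limma). Of the 5 tested genes listed as kinases and phosphatases that act on Rab proteins, directly or indirectly, 3 were higher (60%, against 17.7% of all genes). The others were Ppm1m (log2 fold change 0.40) and the mitochondrial kinase Pink1 (0.14).

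The proteins that switch, carry or bind Rab proteins were examined next. From a list of 138 genes measured here, 55 passed the threshold (39.9%, against 33.1% of all genes), 40 of them higher (29.0%, against 17.7%) and 15 lower (10.9%, against 15.3%). The list was drawn up for such roles and also holds related genes such as Doc2a. The median log2 fold change of the list was 0.084. Among the escort and prenylation genes, 4 of 8 were lower (50%, against 15.3% of all genes) and none was higher. Gdi2, a GDI found in most tissues, fell from 112, 117.9, 111.6 and 108.8 to 92.9, 91.4, 87.5 and 90.7 FPKM, a log2 fold change of -0.31 (SE 0.042, adjusted p = 0.00115 from limma). Every HFD mouse was below every normal mouse. The prenyltransferase subunit Rabggtb and the escort proteins Chml and Chm had log2 fold changes of -0.28, -0.26 and -0.15.

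Of 36 GAPs, 12 were higher (33.3%, against 17.7% of all genes) and 6 lower (16.7%, against 15.3%). Of 30 GEFs, 10 were higher (33.3%) and 3 lower (10%). Sgsm1, a GAP that also binds Rap proteins, rose from 15.6, 18.6, 17.2 and 18.7 to 32.1, 30.2, 31.5 and 29.6 FPKM, with a log2 fold change of 0.82 (SE 0.064, adjusted p = 0.00014 from limma). The HFD mice were all far above the normal mice. Tbc1d4, an insulin-regulated GAP of Rab10, measured 2.5, 4.7, 5.2 and 2.7 FPKM in normal mice and 2.1, 2.1, 2.1 and 2 in HFD mice, a log2 fold change of -0.76 (SE 0.222, adjusted p = 0.0267 from limma). Normal 2 and 3 stood out here, and with the cerebellum markers as a covariate the value was -0.0094. Tbc1d1, the related GAP, went the other way, from 6.03 ± 0.250 to 7.72 ± 0.206 FPKM (SD, n = 4) without overlap, with a log2 fold change of 0.35 (SE 0.057, adjusted p = 0.0024 from limma) that was 0.44 (adjusted p = 0.0254 from limma) with the covariate. The GAPs Tbc1d8b and Tbc1d16 were both at -0.72, with 2.12 ± 0.0957 against 1.25 ± 0.129 FPKM and 12.4 ± 1.94 against 7.47 ± 0.892 FPKM (SD, n = 4). Among the GEFs, Dennd1a and Rin1, which act on Rab35 and Rab5, each had a log2 fold change of 0.46, which with the cerebellum markers as a covariate was 0.45 (adjusted p = 0.0266 from limma) for Dennd1a and 0.14 (adjusted p = 0.471 from limma) for Rin1, and the most negative of those called was Dennd6a at -0.22.

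Of 59 genes listed as effectors, 15 were higher (25.4%, against 17.7% of all genes) and 2 lower (3.39%, against 15.3%). Doc2a, a calcium sensor of neurotransmitter release related to the Rab3 effector rabphilin, rose from 11, 8, 8.5 and 11.4 to 16.4, 17, 19.1 and 15.8 FPKM, with a log2 fold change of 0.82 (SE 0.119, adjusted p = 0.00149 from limma). Normal 2 and 3 were the lowest, and the value with the cerebellum markers as a covariate was 0.48 (adjusted p = 0.0578 from limma). Otof, a calcium sensor of exocytosis, had a log2 fold change of 0.65, and Sytl5, which binds Rab27, had -0.68. With these, 7 of the 138 genes differed by more than 1.5-fold, the others being Sgsm1, Tbc1d4, Tbc1d8b and Tbc1d16.

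The 13 Rab genes were also compared with the cerebellum RNA of the normal mice taken into account. The covariate was the mean log2 level of the 9 cerebellum markers that could be tested. With it, none of the 50 members passed the threshold in limma, where 7.1% of all genes did. An unadjusted p below 0.05 from limma was found for 9 of the 50. These took in Rab6a, Rab12 and Rab23, which the main fit did not call, and none of the 5 members called higher in HFD mice. The share of all genes at that unadjusted p was not computed. All 13 kept their sign, the median size kept was 66.7%, and the standard errors were a median of 1.49 times larger. Rab11a (-0.21, adjusted p = 0.0765 from limma), Rab5a (-0.22), Rab10 (-0.16) and Rab27b (-0.46) were about as large or larger in this fit. The other lower members were smaller, at -0.30 for Rab30, -0.19 for Rab31, -0.16 for Rab18 and -0.62 for Rab37. The members that were higher in HFD mice were smaller too, at 0.14 for Rab6b, 0.21 for Rab36, 0.13 for Rab3b, 0.10 for Rab1b and 0.032 for Rab15. Without Normal 2 and 3, an alternative chosen after seeing the data, 9 members were called, 2 higher and 7 lower, where 19.7% of all genes were called. Of these, 8 were among the 13, and all 13 had the same sign. The mice of this fit are part of the main fit, and 11 of the 13 had no overlap between the diets. The sign of these 11 could therefore not change, and the shared signs are no independent support. Rab15, Rab1b, Rab31, Rab3b and Rab5a were no longer called and Rab12 was added. The summed FPKM of the 11 cerebellum markers did not overlap between the diets (89.4 to 588.3 in normal, 71 to 87.7 in HFD mice), though Normal 1 lay near the HFD mice. The mean log2 level of these 11 markers did not overlap either, at 1.93 to 5.39 in normal and 0.888 to 1.33 in HFD mice. The covariate itself used only the 9 that could be tested. The fit with this covariate therefore cannot fully separate the diet from cerebellum RNA. In the normal mice this covariate also followed other marker lists. The levels of the striatum markers did not overlap between the diets, so the diet and the amount of striatum RNA cannot be told apart with these mice. The part of myelin and blood RNA in the Rab values was not tested.

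**Figure D5:**
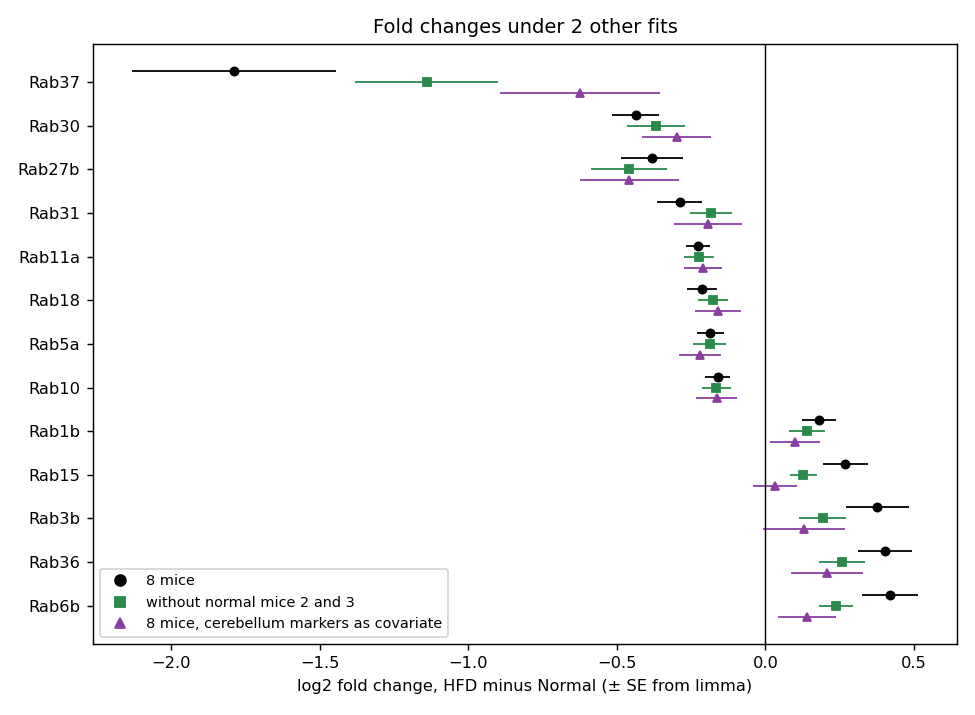
Log2 fold change (HFD minus Normal, ± SE from limma) of the 13 called Rab mRNAs in all 8 mice (black), without Normal 2 and 3 (green) and with the cerebellum markers as a covariate (purple). Rab11a, Rab5a, Rab10 and Rab27b keep nearly their size or more, while Rab37 shrinks from -1.79 to -0.62 and Rab15 from 0.27 to 0.032.

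Exons of 19 of the 50 Rab genes share bases with another gene in GENCODE M21. The longest shared stretches were 4164 bases of Rab43 with the same-strand gene Gm45140, 1280 bases of Rab4b with the same-strand gene Gm21983 and 1258 bases of Rab24 with the opposite-strand gene Prelid1. Among the members called, Rab5a shares 221 bases with Pp2d1 and Rab10 shares 143 bases with Rab10os, both on the opposite strand, and Rab11a shares 107 bases with the same-strand microRNA gene Gm47308. The libraries kept strand, but the use of strand in the counting is not stated in those sources that were read, so the values of these genes are uncertain to that extent. Rab10os lay between 20.2 and 23.5 FPKM in normal mice and between 22.1 and 27 FPKM in HFD mice, in which Rab10 was lower.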

How the data were processed

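RNA of 8 mouse cortexes, 1 library per mouse, was sequenced from both ends as stranded, rRNA-depleted libraries. FPKM values were made by the authors with Trimmomatic, STAR (mm10) and Cuffnorm (GENCODE M17, GRCm38.p6) and deposited; genes averaging below 1 or with a 0 in a sample were left out of their later analyses. Tool versions: not given in the sources used here. Of the 13996 genes, 14 lay outside that filter and were not tested. The authors' values are scaled for depth, so read depth is unknown. From the deposited FPKM, log2(FPKM + 0.1) was compared with limma 3.58.1 (R 4.3.3, variance trend), with Benjamini-Hochberg adjustment over 13982 genes. Tables and figures used Python 3.11.15, numpy 2.4.6, pandas 2.3.3 and matplotlib 3.10.9. The procedure was tested on simulated data. It recovered 9 of 50 genes changed 1.2-fold, 33 of 50 changed 1.5-fold, 44 of 50 changed 2-fold and 48 of 50 changed 3-fold. A gene not called may therefore still differ by a small amount. The Rab genes and the role, partner and marker lists were chosen with earlier results of these data known. Named were members called, the 6 of highest FPKM, all forms sharing a Rab number, and partners called with a difference over 1.5-fold or the largest change each way in their list. Genes named for another reason (such as Rab13, Tbc1d1, Rab22a, Rab26, Ppm1m and Pink1) were chosen after their values were seen. The result of 1 gene is left out. Coordinates were taken from GENCODE M21 (GRCm38), in which 50 of 50 members were found, 43 with the same version. Promoters are from RefSeq on GRCm38.p6. Alternatives were another added constant, filters, a fit lacking the variance trend, quantile normalization, rescaling, a replicate block, marker covariates and leaving out mice.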

Additional observations from a re-analysis of the deposited data

Results flagged for a closer look

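In 4 of the 100 groups of 4 mice examined, that is each Rab gene in each diet, the highest or lowest mouse lay farther from the others than Dixon's 95% limit of 0.829 allows, and chance gives about 1 in 20. Rab1b in Normal 3 was at 44.7 FPKM, where the other normal mice had 49.6 to 49.8. Rab33b in Normal 2 was at 10.1 FPKM, above 8.9 to 9.1 in the others. Rab3d in HFD 4 was at 3.7 FPKM, with 3 FPKM in each of the other high fat diet fed mice. Rab9 in HFD 3 was at 16.6 FPKM, below 19.1 to 19.5. Of these genes only Rab1b was called between the diets.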

How the results depend on the processing

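The count of 13 Rab genes called was 12 to 14 with an added constant of 1, with a mean FPKM of at least 5, without a filter, after median-ratio rescaling or quantile normalization and without the variance trend, and 9 to 16 with a mouse left out, lowest without Normal 2 and highest without Normal 1. With the cerebellum or the striatum markers as a covariate it was 0 and 0, and the median log2 fold change was -0.012 and -0.11. The count of Rab genes called with a difference over 1.5-fold, 1 (Rab37), was 0 under a minimum mean of 5 FPKM, which removes it from the test, and 0 and 0 with the cerebellum and the striatum covariate, where its log2 fold change was -0.62 and -2.39. The count of 55 partners called was 15 with the cerebellum covariate (13 of them among the 55), 0 with the striatum covariate and 36 without Normal 2 and 3. With the striatum covariate, under which limma called 0 of 13982 genes (293 at an unadjusted p below 0.05, 0 of them Rab genes and 1 a partner), the sign was reversed for Rab31 (0.42), Rab36 (-0.021), Rab3b (-0.12), Rab5a (0.11) and Otof (-0.080). The cause of these changes was not tested. With the replicate number as a block, 11 Rab genes were called and Rab10 and Rab1b were lost. The numbers are only names, since same-numbered mice of the diets did not deviate together (r from -0.109 to -0.028). The unknown depth and the rounding to 0.1 FPKM limit members near 1 FPKM.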
